A study of Mus musculus with 6 samples.

Results

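The SLAM (signalling lymphocyte activation molecule) family was followed here through 8 genes of a table of 13564 genes: the receptors Slamf1 (CD150), Slamf6 (Ly108), Slamf7 (CRACC), Cd48, Cd84 (Slamf5), Ly9 (CD229) and Cd244a (2B4), and the adaptor Sh2d1a, which encodes SAP. The genes were taken by name, as the rows whose mouse gene symbol was one of these 8. The rule uses no measured value, although the family was picked with earlier results of these data known, and all 8 were among the 13691 genes tested. The RNA came from CD4 T cells of C57BL/6J Foxo1TKO mice (n = 3 libraries) and Foxo1Ctrl mice (n = 3 libraries). Per the study, both carry a Foxp3-GFP reporter and Foxo1 fl/fl alleles, and Foxo1TKO mice alone also carry CD4cre, which deletes Foxo1 in all T cells from the thymus on and not only in the cultured naive cells. The mice of these genotypes were young adults in the study, and no age is given for these samples. Naive CD4 T cells from lymph nodes had been cultured for 4 days in both genotypes with 250000 splenocytes of CD3eKO mice, a strain without T cells, and the soluble antibody 145-2C11 against CD3 at 0.1 µg/ml. The labels give 50000 T cells per culture, whereas the methods give a higher number. Neither source states that splenocytes were removed before the RNA was taken, or that the libraries of a genotype came from separate mice, so the p-values measure the spread between these libraries only.

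SLAM family receptors sit on the surface of lymphocytes and other blood cells, and most of them bind a copy of themselves on the neighbouring cell, whereas Cd48 is held in the membrane by a lipid anchor and is the ligand of Cd244a and of the adhesion receptor Cd2. The tails of the signalling receptors carry tyrosine motifs that recruit SAP, which brings in the kinase Fyn, or, where SAP is absent, phosphatases such as those encoded by Ptpn6, Ptpn11 and Inpp5d. In CD4 T cells this pathway is known for stable contacts with B cells and for the help that follicular helper T cells give in germinal centres.

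In the progeny of naive CD4 T cells lacking Foxo1, Slamf6 mRNA was 13.2-fold lower than in the controls and Cd84 mRNA was 1.66-fold lower, whereas Cd244a mRNA was 4.45-fold higher and Slamf7 mRNA 3.09-fold higher. Slamf1, Cd48, Ly9 and the adaptor Sh2d1a were not called. A gene was called where edgeR's quasi-likelihood test gave an adjusted p under 0.05 and the fold change was over 1.5, so that 2 of 8 SLAM genes were called higher and 2 lower, where 11.1% of all genes tested were called higher and 11.8% lower (23.0% in either direction). The normalized counts of the genotypes did not overlap for 5 of the 8 genes, beside 42.7% of all genes tested. Of the 5, 2 were higher in every Foxo1TKO library and 3 lower, beside 21.5% and 21.2% of all genes. The median log2 fold change of the 8 genes was -0.17 and that of all genes tested 0.01. In these bulk samples, fewer cells carrying a transcript and less of that transcript per cell cannot be told apart.

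The targeted gene followed the labels. Foxo1 held 101, 53 and 107 counts in the Foxo1TKO libraries and 1282, 1998 and 1649 counts in the Foxo1Ctrl libraries, a log2 fold change of -4.45 ± 0.36 (SE, adjusted p = 0.000195, edgeR's quasi-likelihood test). Library totals ran from 14783890 to 19675452 counts. The libraries stood apart from one another within genotypes: the chi-square per degree of freedom between libraries of 1 genotype ran from 13.5 to 90.3, and Foxo1Ctrl 2 and Foxo1TKO 1 were each the furthest from the rest of their genotype. The T cell marker list summed to 142604 to 153635 normalized counts in Foxo1TKO and 160192 to 184345 in Foxo1Ctrl libraries, and 1 of its 8 genes was called lower. Markers of other cells that the splenocytes could have brought moved with genotype. The B cell list summed to 5048 to 6188 normalized counts in Foxo1TKO libraries and 13051 to 21808 in Foxo1Ctrl libraries (5 of 8 tested genes called lower), the plasma cell list to 359 to 956 and 1663 to 2518 (2 of 3 called lower), the macrophage and monocyte list to 87.1 to 114 and 418 to 740 (1 of 3 called lower) and the NK cell list to 773 to 1643 and 3824 to 5612 (1 of 3 called lower). Without Ighm, an immunoglobulin gene, the B cell list summed to 152 to 210 normalized counts in Foxo1TKO and 536 to 611 in Foxo1Ctrl libraries. Tnfrsf17 and Klra8, defining genes of the plasma cell and NK cell lists, held at most 3 counts in every library. No gene of the dendritic cell, CD8 T cell and regulatory T cell lists was called.

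The 6 SLAM genes with a promoter entry in RefSeq were searched for a forkhead binding sequence, GTAAACA, and for its shorter core TGTTT, each on both strands, in the 300 bases from 250 before to 50 after the annotated start (GRCm38.p6). These genes were Slamf1, Slamf6, Slamf7, Cd48, Cd84 and Cd244a. No window held GTAAACA, which occurs in 3.66% of 32544 mouse promoter windows. TGTTT occurs in 50.5% of the windows, with a median of 1 per window. It occurred 8 times in the window of Slamf6, once each in those of Slamf7, Cd48 and Cd84 and not in those of Slamf1 and Cd244a. Of all windows, 0.111% held at least 8, and 7 of the 8 in Slamf6 were in a row, 4 bases apart, in 1 run of a repeat. A match of this kind describes the letters and is not a binding site. The windows of Slamf6, which fell most, and of Slamf7 and Cd244a, which rose, are shown 5′ to 3′ on the strand of the gene with TGTTT in capitals. They are at chr1:171917212-171917511 (plus strand), chr1:171648950-171649249 (minus strand) and chr1:171558943-171559242 (plus strand). The window of Slamf7 lies inside the span of this gene in GENCODE M21 (171632403 to 171653035), the annotation used for gene positions below. The start of Slamf7 in that annotation was therefore not searched.
Slamf6: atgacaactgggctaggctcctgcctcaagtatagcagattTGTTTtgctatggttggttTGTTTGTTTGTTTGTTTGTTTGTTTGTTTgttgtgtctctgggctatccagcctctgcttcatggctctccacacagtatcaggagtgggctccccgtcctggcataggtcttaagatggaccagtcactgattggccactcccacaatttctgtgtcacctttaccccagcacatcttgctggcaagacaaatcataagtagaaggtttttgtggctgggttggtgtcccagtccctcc
Slamf7: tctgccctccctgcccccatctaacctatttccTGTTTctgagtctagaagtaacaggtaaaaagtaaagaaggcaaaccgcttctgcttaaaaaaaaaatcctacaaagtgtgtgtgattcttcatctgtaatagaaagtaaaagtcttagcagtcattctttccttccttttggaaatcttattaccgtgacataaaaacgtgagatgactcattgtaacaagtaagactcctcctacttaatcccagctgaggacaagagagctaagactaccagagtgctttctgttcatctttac
Cd244a: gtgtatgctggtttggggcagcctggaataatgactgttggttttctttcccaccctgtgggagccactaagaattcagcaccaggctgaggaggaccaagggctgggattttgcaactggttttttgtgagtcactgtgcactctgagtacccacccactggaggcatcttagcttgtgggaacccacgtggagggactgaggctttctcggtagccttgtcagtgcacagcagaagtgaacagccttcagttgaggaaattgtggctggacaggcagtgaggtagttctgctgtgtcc

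Levels of different genes were compared as TPM, a transcript's share of all transcripts in a library on a fixed scale, which takes the length of each gene's transcripts into account. In Foxo1Ctrl libraries the adaptor Sh2d1a (562 ± 63.2 TPM, mean ± SD, n = 3) and the receptor Slamf6 (484 ± 72.0 TPM) stood highest, and their ranges overlapped. Cd48 (333 ± 21.5 TPM), Cd84 (135 ± 7.36 TPM) and Ly9 (101 ± 22.2 TPM) followed, each apart from its neighbours. Slamf7 (23.1 ± 3.32 TPM) and Slamf1 (20.9 ± 2.77 TPM) overlapped, and Cd244a (1.19 ± 0.60 TPM) was lowest. In Foxo1TKO libraries Sh2d1a was again highest (562 ± 126 TPM), followed by Cd48 (288 ± 15.9 TPM). Ly9 (129 ± 26.8 TPM) overlapped with Cd84 (91.7 ± 7.33 TPM), which overlapped with Slamf7 (71.6 ± 19.7 TPM). Slamf6 had moved from the second to the sixth place (40.8 ± 5.69 TPM), above Slamf1 (17.4 ± 3.66 TPM) and Cd244a (5.32 ± 1.17 TPM).

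**Figure D1:**
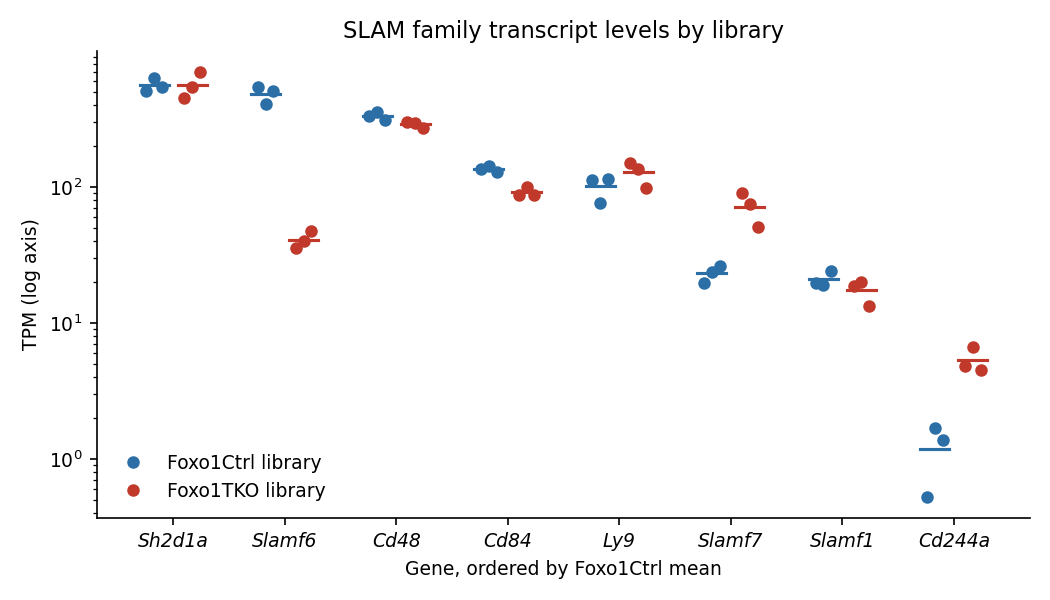
TPM of the 8 SLAM genes (log axis) in each Foxo1Ctrl library (blue) and each Foxo1TKO library (red), with a line at the mean of 3 libraries. Slamf6 lies near 484 TPM in the controls and near 40.8 TPM in Foxo1TKO, whereas Sh2d1a has a mean of 562 TPM in both.

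Slamf6, a receptor that binds itself and is used as a marker of T cells with stem-like features, had levels of 35.8, 39.8 and 47.0 TPM in Foxo1TKO libraries 1, 2 and 3 and of 542, 404 and 506 TPM in Foxo1Ctrl libraries. Every Foxo1TKO library lay far below every Foxo1Ctrl library. In counts the log2 fold change was -3.72 ± 0.19 (SE), with a 95% interval from -4.15 to -3.28 (adjusted p = 3.42e-05, edgeR's quasi-likelihood test, adjusted by the Benjamini-Hochberg method). Among the 13691 genes tested Slamf6 took the 138th place from the lowest fold change. B cells also carry Slamf6, and the B cell list was lower too. Without the immunoglobulin gene Ighm this list summed to 22.6 to 29.4 TPM in Foxo1Ctrl and 7.09 to 10.2 TPM in Foxo1TKO libraries. The part of B cells in the difference of Slamf6 was not tested.

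Cd84, which also binds itself and takes part in T cell and B cell contacts, had levels of 87.2, 100.1 and 87.7 TPM in Foxo1TKO libraries and 134, 142 and 128 TPM in Foxo1Ctrl libraries. The genotypes did not overlap, with all Foxo1TKO libraries lower. The log2 fold change was -0.73 ± 0.17 (SE, adjusted p = 0.0171, edgeR's quasi-likelihood test). This call was the least stable of the 4: the adjusted p was 0.0503 without Foxo1TKO 1 and 0.0533 without Foxo1TKO 2, and the fold change on TPM was below the limit. Macrophages and B cells express Cd84 too, and the part of their lower marker sums in this difference was not tested.

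Slamf7, a receptor that signals through EAT-2 or on its own rather than through SAP and is known from cytotoxic T cells, NK cells and plasma cells, had levels of 89.5, 74.7 and 50.5 TPM in Foxo1TKO libraries and 19.5, 23.6 and 26.1 TPM in Foxo1Ctrl libraries. All 3 Foxo1TKO libraries were above all Foxo1Ctrl libraries, and Foxo1TKO 3 was the lowest of them. The log2 fold change was 1.63 ± 0.21 (SE, adjusted p = 0.00147, edgeR's quasi-likelihood test).

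Cd244a, the receptor for Cd48, was rare in both genotypes. It held 158, 189 and 107 counts in Foxo1TKO libraries and 10, 40 and 34 counts in Foxo1Ctrl libraries, so that the genotypes did not overlap. The log2 fold change was 2.15 ± 0.44 (SE, adjusted p = 0.0108, edgeR's quasi-likelihood test), with the widest 95% interval of the 8 genes, from 1.13 to 3.18. Cd244a and Slamf7 are best known from NK cells, whose marker list had a lower sum in every Foxo1TKO library, as had that of plasma cells. The NK cell list includes Gzma, and 1 of its 3 tested genes was called lower. Klra8 of this list held at most 3 counts in every library, so the sum need not follow the number of NK cells. Cd244a and Slamf7 moved in the direction opposite to these marker sums, and the part of such cells in either difference was not tested.

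Cd48, the ligand, had levels of 298, 296 and 269 TPM in Foxo1TKO libraries and 332, 355 and 312 TPM in Foxo1Ctrl libraries. The genotypes did not overlap, but the difference was small and not called (log2 fold change -0.28 ± 0.16, SE, 95% interval -0.65 to 0.10). Of the Cd244a and Cd48 pair, the gene of the receptor was thus called higher while that of its ligand was not called. Most of the estimated Cd244a transcripts were not of the protein-coding form, as given with the transcript lengths below.

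Slamf1, which binds itself and is also an entry receptor for measles virus in humans, overlapped between the genotypes at 18.7, 20.2 and 13.2 TPM in Foxo1TKO and 19.55, 19.05 and 24.1 TPM in Foxo1Ctrl libraries. Its log2 fold change was -0.33 ± 0.18 (SE, 95% interval -0.75 to 0.08). Ly9, another receptor that binds itself, also overlapped, at 151, 136 and 98.9 TPM in Foxo1TKO and 113, 75.5 and 115 TPM in Foxo1Ctrl libraries. Its log2 fold change was 0.29 ± 0.17 (SE, 95% interval -0.10 to 0.68). A fall of Slamf1 and a rise of Ly9 by 1.5-fold lie within these intervals.

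Sh2d1a, which encodes the adaptor SAP, had levels of 449, 539 and 698 TPM in Foxo1TKO libraries and 508, 632 and 545 TPM in Foxo1Ctrl libraries. Both the lowest and the highest library belonged to Foxo1TKO. The log2 fold change was -0.07 ± 0.25 (SE, 95% interval -0.66 to 0.52), the smallest of the 8 genes, and its sign turned when Foxo1TKO 1 or Foxo1Ctrl 2 was left out.

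The 7 receptors were then set against one another within each library, as shares of their summed TPM. Slamf6 made up 43.9 ± 3.83% of the receptor transcripts in Foxo1Ctrl libraries (46.7, 39.6 and 45.5%) and 6.45 ± 1.57% in Foxo1TKO libraries (5.22, 5.91 and 8.23%). Cd48 took the first place in Foxo1TKO libraries, with 44.9 ± 2.00% against 30.5 ± 3.73% in the controls. Slamf7 went from 2.12 ± 0.38% in Foxo1Ctrl to 11.01 ± 2.12% in Foxo1TKO libraries, and Ly9 from 9.16 ± 1.55% to 19.8 ± 2.38%. Shares add up to a whole, so that a share can rise because another fell. The summed level of all 7 receptors was 643 ± 62.6 TPM in Foxo1TKO and 1098 ± 71.5 TPM in Foxo1Ctrl libraries. Without Slamf6 the sums were 602 ± 68.1 TPM and 614 ± 7.10 TPM, so that the difference in the total was close to that of Slamf6. Among the others, lower means of Cd48, Cd84 and Slamf1 were offset in the sum by higher means of Ly9, Slamf7 and Cd244a. Per transcript of Sh2d1a there were 1.20 ± 0.36 receptor transcripts in Foxo1TKO and 1.98 ± 0.34 in Foxo1Ctrl libraries, where the highest Foxo1TKO library (1.52) was just below the lowest Foxo1Ctrl library (1.62). This ratio counts all 7 receptors, with the lipid-anchored Cd48 and with Slamf7, which does not signal through SAP. It is therefore not a ratio of SAP-binding receptors to SAP.

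**Figure D2:**
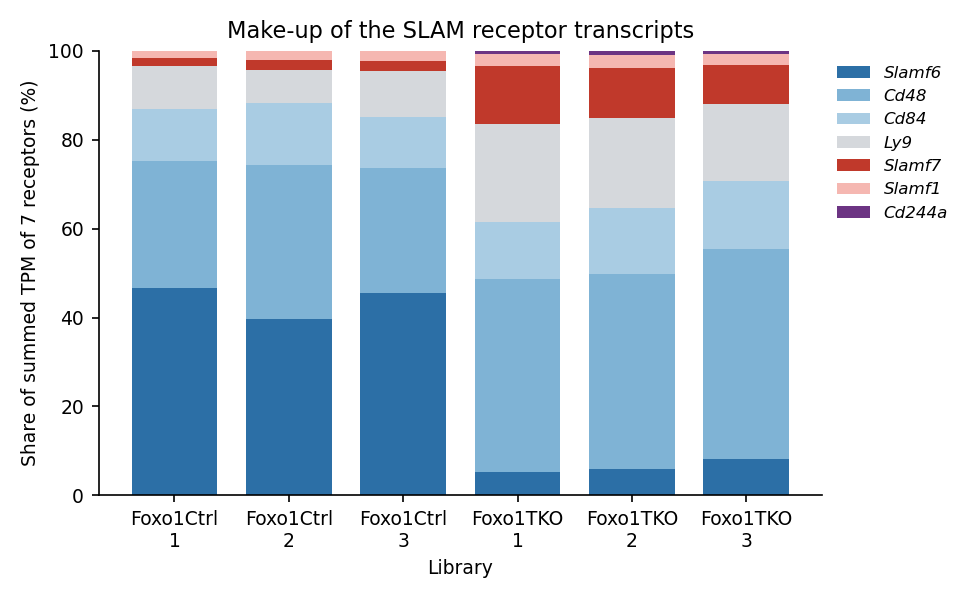
Share of each of the 7 receptors in their summed TPM (%), in each of 3 Foxo1Ctrl and 3 Foxo1TKO libraries (stacked bars). Slamf6 fills 43.9% of the bar on average in Foxo1Ctrl and 6.45% in Foxo1TKO libraries, and Slamf7 2.12% and 11.01%.

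The rest of the pathway was followed through 25 genes, of which 20 were tested. Of these, 2 were called higher, 3 lower and 15 were not called, with a median log2 fold change of -0.10. Over all genes tested, 11.1% were called higher and 11.8% lower, so that 5 of 20 was near the 23.0% of the background. The other adaptor of the SAP family, Sh2d1b1, which encodes EAT-2 and is best known from NK cells, held 29, 40 and 19 counts in Foxo1TKO libraries and 1, 0 and 1 counts in Foxo1Ctrl libraries. Sh2d1b1 was called higher (adjusted p = 0.00197, edgeR's quasi-likelihood test). Because the Foxo1Ctrl libraries were at or under 3 counts, the fold is given as a bound, at least 8.07-fold higher against 3 counts per library. EAT-2 is the partner through which Slamf7 signals, and both transcripts were thus higher in Foxo1TKO libraries, at counts that differed widely (19 to 40 against 927 to 1679).

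Among the enzymes, Ptpn6, which encodes the phosphatase SHP-1, was called higher, with a log2 fold change of 1.14 ± 0.22 (SE, adjusted p = 0.00859, edgeR's quasi-likelihood test). Ptpn11, which encodes SHP-2, did not overlap between the genotypes but was not called (log2 fold change 0.59 ± 0.24, SE), and Inpp5d, which encodes SHIP-1, was not called. Prkcq, the PKC-theta kinase downstream of SAP and Fyn, was called lower, with a log2 fold change of -0.97 ± 0.17 (SE, adjusted p = 0.00552, edgeR's quasi-likelihood test). Fyn itself was not called, at a log2 fold change of -0.11 ± 0.19 (SE). Rasa1, which switches off Ras, was called lower (log2 fold change -0.68 ± 0.20, SE, adjusted p = 0.0428, edgeR's quasi-likelihood test), a call that was lost whichever library was left out.

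Il21, the cytokine of follicular helper T cells, was called lower. It was at 0.845, 5.26 and 0 normalized counts in Foxo1TKO libraries and 38.2, 37.7 and 34.9 in Foxo1Ctrl libraries, with a log2 fold change of -3.61 ± 0.67 (SE, adjusted p = 0.00705, edgeR's quasi-likelihood test). At these low counts the size of the fall depended on the processing: the log2 fold change was -4.66 without Foxo1TKO 2, -4.57 with limma-voom, -4.50 on the deposited normalized values and -1.18 on TPM, and Il21 was called lower in each. Cd2, the other receptor for Cd48, did not overlap between the genotypes but was not called, at a log2 fold change of -0.48 ± 0.22 (SE). The 3 partners of Slamf1 in the phagosome, Becn1, Pik3c3 and Uvrag, were not called, and neither were Vav1, Nck1, Arhgef7, Bcl10, Dok1, Dok2, Csk and Gata3. Slamf8, Slamf9, Sh2d1b2, Il4 and Zbtb16 did not pass the filter on low counts.

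**Figure D3:**
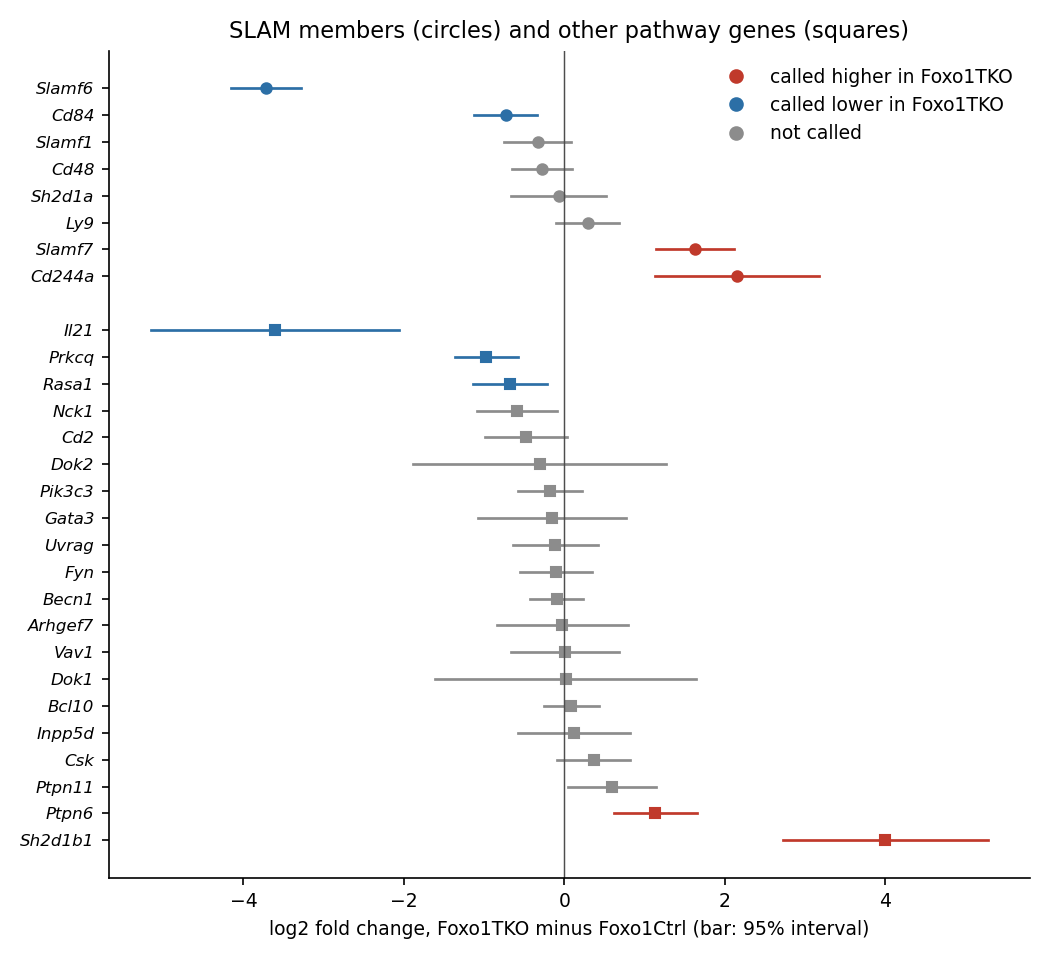
Log2 fold change of Foxo1TKO against Foxo1Ctrl with its 95% interval (edgeR, n = 3 libraries per genotype) for the 8 SLAM genes (circles) and 20 other genes of the pathway (squares), coloured by call. The fitted value of Sh2d1b1 rests on at most 1 count in each Foxo1Ctrl library and is not a bound.

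All SLAM members except Sh2d1a, which is on chromosome X (42502453 to 42529330), lie side by side on chromosome 1 (171559193 to 171953170, 394 kb, GRCm38, positions from GENCODE M21). The order from the start is Cd244a, Ly9, Slamf7, Cd48, Slamf1, Cd84 and Slamf6. The genes called higher, Cd244a and Slamf7, lie near one end, and the genes called lower, Cd84 and Slamf6, at the other. Ly9, which lies within the span of Cd244a on the opposite strand and shares no exon base with it, was not called. Ly9 held up to 5596 counts in a library and Cd244a at most 189. Whether the counting used the strand is not stated, so reads from an intron of Ly9 that lies over an exon of Cd244a cannot be assigned with certainty. The part of such reads in the Cd244a counts was not tested. The span holds 19 annotated genes, of which 10 were tested.

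Gm37065 is an antisense RNA on the strand opposite to Slamf6. Its span (171909957 to 171919356) covers the start of Slamf6 and the promoter window printed above, with 1842 bases shared with the span of Slamf6 and no shared exon base. It held 1, 6 and 2 counts in Foxo1TKO libraries and 100, 142 and 113 counts in Foxo1Ctrl libraries. All Foxo1TKO libraries were near 0, and the log2 fold change was -5.13 ± 0.49 (SE, adjusted p = 0.000393, edgeR's quasi-likelihood test). It was -5.73 without Foxo1TKO 2 and -3.96 on TPM with 1 added before the log, and Gm37065 was called lower in both. The sources used here do not say whether the counting used the strand, so reads from an intron of one gene that lies over an exon of the other cannot be assigned with certainty, whereas the exons themselves share no base. Of the other tested non-coding genes in the cluster, neither A630035G10Rik nor Gm37010 was called.

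Beside the cluster, the nearest tested gene past Slamf6 was Vangl2, a planar polarity gene, with 26, 28 and 42 counts in Foxo1TKO and 4, 3 and 5 counts in Foxo1Ctrl libraries. It was called higher, the opposite direction to its neighbour (log2 fold change 2.55 ± 0.46, SE, adjusted p = 0.00598, edgeR's quasi-likelihood test), at low counts. The next gene, Ncstn, and the nearest tested genes on the other side, Alyref2 and B930036N10Rik, were not called.

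**Figure D4:**
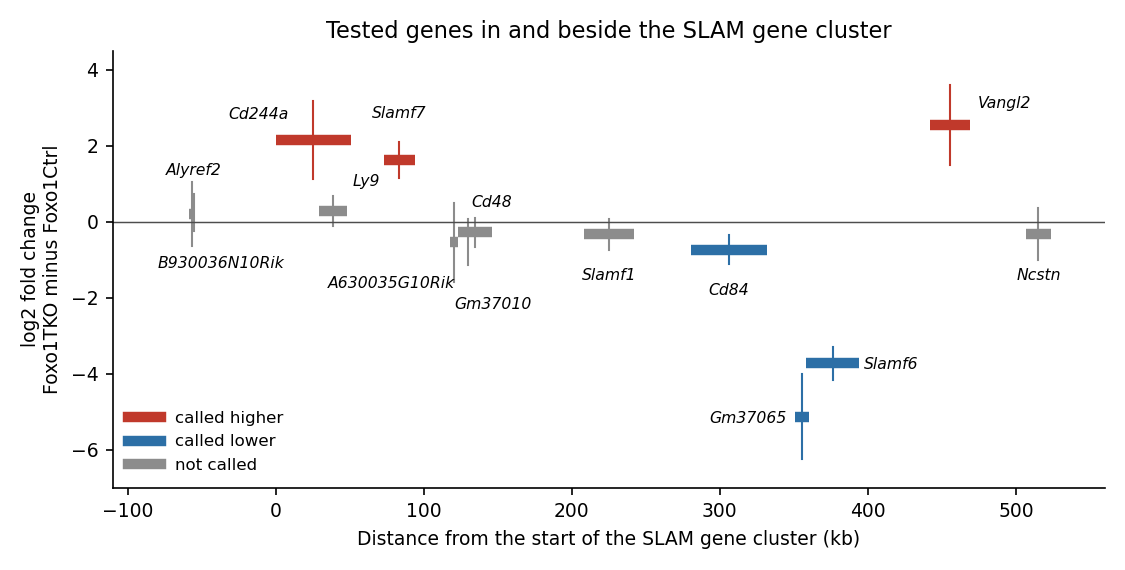
Log2 fold change of Foxo1TKO against Foxo1Ctrl for the 10 tested genes of the SLAM gene cluster and 2 tested genes on either side, by distance from the start of the cluster (kb); thick bars span each gene and thin lines give the 95% interval. Cd244a and Slamf7 lie above 0 at one end, and Cd84, Gm37065 and Slamf6 below 0 at the other.

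Each library also came with an estimate of the mean length of the transcripts of each gene, weighted by their abundance, which moves when the mixture of isoforms moves. With 3 libraries against 3 the exact two-sided permutation test cannot go below p = 0.1. Slamf6 transcripts were shorter in every Foxo1TKO library (1447, 1430 and 1362 bases) than in every Foxo1Ctrl library (1516, 1501 and 1529 bases), a difference in means of -102 bases. Cd84 transcripts were likewise shorter, at 2046 ± 55.6 bases in Foxo1TKO and 2210 ± 89.1 bases in Foxo1Ctrl libraries, and those of Sh2d1a at 921 ± 3.11 and 931 ± 2.49 bases. Slamf7 transcripts were longer in every Foxo1TKO library, at 1350 ± 29.2 bases against 1287 ± 28.1 bases. Each of these 4 genes reached the smallest p the test allows (exact permutation p = 0.1). Among the 10933 genes with more than 1 transcript, 6.05% were shorter and 6.91% longer in every Foxo1TKO library, beside 3 and 1 of the 8 SLAM genes.

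The length of Cd244a transcripts, estimated from 10 to 189 counts, varied most, with 1 Foxo1TKO library at 2184 bases and the other 5 libraries between 1703 and 1808 bases. The protein-coding transcript annotated for Cd244a has 3760 bases. Its other annotated transcripts, of 1331, 1854 and 2743 bases, are retained-intron forms or a form marked for nonsense-mediated decay. At these lengths most of the estimated Cd244a transcripts in every library were forms not annotated as protein-coding. Slamf1 and Cd48 each have a pair of annotated transcripts, so that the length gives their shares. The retained-intron transcript of Slamf1 made up 9.55 ± 3.83% in Foxo1TKO and 9.81 ± 0.75% in Foxo1Ctrl libraries, and the longer transcript of Cd48 99.0 ± 0.30% and 99.4 ± 0.26%. The genotypes overlapped for both genes (exact two-sided permutation p = 1 for Slamf1 and 0.2 for Cd48).

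**Figure D5:**
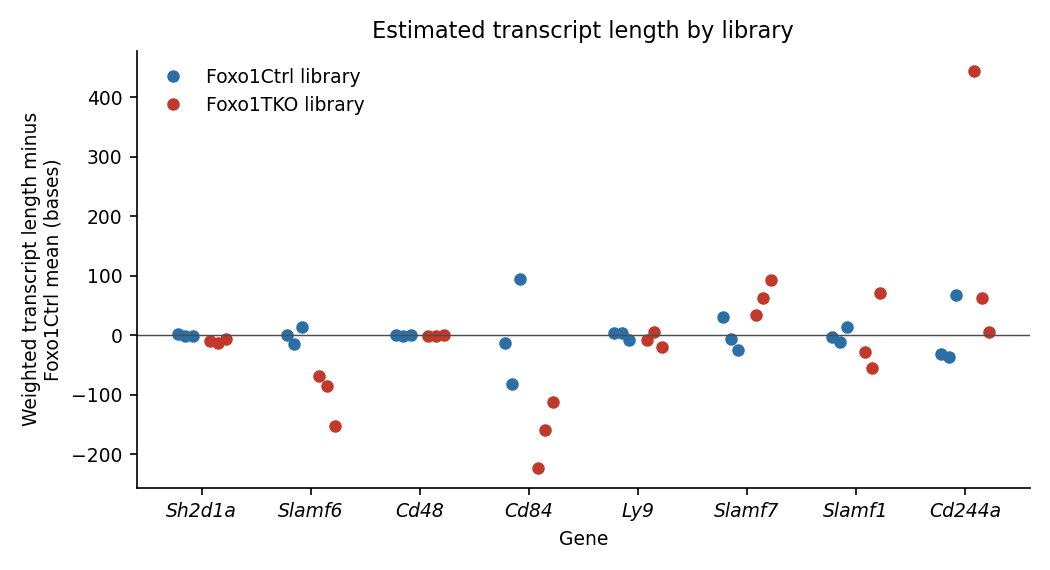
Abundance-weighted transcript length of each SLAM gene in each library, as the difference from the Foxo1Ctrl mean (bases); each point is 1 library. Slamf6, Cd84 and Sh2d1a lie below the controls in all 3 Foxo1TKO libraries and Slamf7 above them.

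For each called SLAM gene, the 2 genes whose normalized counts followed it most closely over the 6 libraries were named from 9228 genes (mean normalized count of 100 or more), by the root mean square of the differences between their centred log2 profiles. Slamf6 was followed most closely by Gm4070 (0.12) and Samhd1 (0.13). Both were called lower, with log2 fold changes of -3.82 and -3.80. Genes picked by this likeness share the change of the SLAM gene through the way they were picked, here and below. Slamf7 was followed by Dtl (0.15) and Psat1 (0.19), and Cd84 by Kmt2e (0.02) and Bbx (0.04). Cd244a was followed by Acsl3 (0.28) and by Cd38 (0.33), an enzyme on the surface of lymphocytes that rose from 404 ± 129 to 1761 ± 172 normalized counts. Closeness was least for Cd244a, whose counts were lowest.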

How the data were processed

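RNA-seq libraries of 3 Foxo1TKO and 3 Foxo1Ctrl cultures were grouped by label (title and genotype). The authors aligned reads with STAR 2.7.6a to GRCm38, kept reads mapping to up to 10 loci, and deposited RSEM 1.3.1 expected counts, TPM and FPKM per gene and library. They also deposited a normalized signal per gene, in which expected counts are scaled by DESeq2 size factors and by each gene's relative effective length. RSEM lengths are in bases. Strandedness of the counting is not given in the sources used here. A read shared between genes is split by RSEM, and the expected counts of Slamf7 were not whole in 4 libraries and those of Sh2d1a in 3.

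Expected counts were rounded to whole numbers. Of 55487 genes, 13691 reached 10 counts in 3 or more libraries and were tested in R 4.3.3 with edgeR 4.0.16 (TMM, glmQLFit, glmQLFTest, prior count 1), with a genotype term alone and Benjamini-Hochberg adjustment over all genes tested. Normalized counts are the counts after TMM scaling. Calls needed a fold change over 1.5 and an adjusted p under 0.05. The tests were tested on simulated data first. Positions came from GENCODE M21 and promoter windows from RefSeq (GRCm38.p6). Exact permutation tests over the 6 libraries were run with Python 3.11.15. Bounds cover counting error only.

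The SLAM genes, pathway list and marker lists were chosen with earlier results of these data known. Named genes are these, tested genes within the cluster and 2 on either side, and the 2 genes most like each called SLAM gene. Alternatives were DESeq2 1.42.0, limma-voom (limma 3.58.1), other scalings, filters and units, the replicate number as a block, and each library left out in turn. On log scales of TPM and of the deposited signal a pseudocount of 1 was added.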

Additional observations from a re-analysis of the deposited data

How the results depend on the processing

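Of 681 alternatives to the values given above, 651 kept direction and side of the threshold, or stayed within the spread or within 1.5 times for a count. Slamf6, Slamf7 and Cd244a were called in every alternative run. Across the alternatives that kept all libraries, the log2 fold change of Slamf6 ran from -3.74 to -3.53, that of Slamf7 from 1.55 to 1.64 and that of Cd244a from 1.55 to 2.34, and with each library left out in turn from -3.86 to -3.60, from 1.49 to 1.77 and from 1.78 to 2.56 (adjusted p of Cd244a up to 0.0487, edgeR). Cd84 was not called on TPM with limma, where its log2 fold change was -0.55 and 1 SLAM gene was called lower. Leaving out each library in turn, the log2 fold change of Cd84 ran from -0.81 to -0.61, with the call lost without Foxo1TKO 1 or 2, and the number of SLAM genes called lower ran from 1 to 2. The log2 fold change of Sh2d1a then ran from -0.32 to 0.14, and the length difference of Slamf1, which was -4.58 bases with all libraries, from -42.0 to 21.0 bases, each with changes of sign.

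Among the other genes named, Fyn changed sign without Foxo1TKO 1 or Foxo1Ctrl 2 (from -0.246 to 0.0378 with each library left out in turn), A630035G10Rik without Foxo1Ctrl 2 (from -0.858 to 0.0449), and B930036N10Rik without Foxo1TKO 3 or Foxo1Ctrl 2 (from -0.0324 to 0.413), with effective length offsets (-0.0943), on the deposited normalized signal (-0.000919) and on TPM (-0.0164). Rasa1 lost its call without any 1 of the 6 libraries (adjusted p from 0.0693 to 0.102, edgeR), Bbx without Foxo1TKO 1 or 2, and Vangl2 on TPM with limma (log2 fold change 0.34). Ptpn11 was called without Foxo1Ctrl 3 and Ncstn without Foxo1Ctrl 2. On TPM, where 1 is added before the log, the log2 fold changes of low genes were smaller (Cd244a 1.55, Acsl3 1.40, Foxo1 -3.14), with the calls kept. The cause of the other changes was not tested.

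The replicate numbers are shared by the genotypes, and whether they pair the libraries could not be settled with 3 libraries per genotype. The correlation of deviations from the genotype means was 0.43, 0.20 and -0.11 for numbers 1, 2 and 3. For Foxo1TKO 1 and 2 the control library of the same number correlated best, whereas Foxo1TKO 3 correlated best with Foxo1Ctrl 2 (0.30). The study compared PD1, TIGIT and cell divisions of such cultures in pairs by experiment. With the replicate number as a block, 3318 genes were called in place of 3145, and the SLAM genes kept their calls (log2 fold change of -3.73 for Slamf6, 1.62 for Slamf7, 2.25 for Cd244a and -0.73 for Cd84). Over all genes tested, the number called ran from 1854 to 3320 with 1 library left out, the lowest without Foxo1TKO 2, and from 2887 on TPM with limma to 3693 with DESeq2 otherwise. With 3 libraries per genotype, 4 SLAM genes have intervals that include both no change and a change of 1.5-fold. Depth limits Cd244a, Sh2d1b1, Il21, Gm37065, Vangl2, A630035G10Rik and B930036N10Rik, each of which has libraries with 40 counts or fewer.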
